A study of Zea mays with 12 samples.

Results

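Inhibition of strigolactone synthesis in maize roots without nitrogen was examined by setting roots given TIS108 against roots of the N-deprived control. The comparison covered every entry of the deposited expression table that reached 5 FPKM (fragments relative to feature length and to all mapped fragments) in at least 1 of the 2 groups, which were 15381 of 26451 entries. Seedlings of the inbred line B73 germinated for 3 days and then spent 24 h either in a solution without nitrogen that held 2 µM TIS108 or in the same solution without the inhibitor. All plants of both groups therefore lacked nitrogen, and they differed by label in TIS108 alone. Each group had 3 biological replicates of 4 to 8 pooled plants, poly(A) RNA of the primary root was sequenced, and 1 value per entry and group was used, so no difference below has an SD, a standard error or a p-value. The other 6 of the 12 samples received 1 mM nitrate, alone or with 10 µM PCIB (an inhibitor of auxin action), and their values are given only where they place those of TIS108.

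Strigolactones are hormones made from carotenoids by an isomerase, carotenoid cleavage dioxygenases and cytochrome P450 enzymes. Roots make them, release them into soil, where they attract mycorrhizal fungi, and use them to adjust shoot branching and root architecture. Shortage of phosphate or nitrogen raises strigolactone synthesis in many plants. TIS108 is a triazole compound that blocks this synthesis, and triazoles as a class bind the haem of cytochrome P450 enzymes.

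Summed FPKM over all entries was 447300 with TIS108 and 497447 in the control, and sequencing depth is unknown because the table holds no counts. Fewer cells of a type and less RNA per cell cannot be told apart in whole roots. None of the 26061 nuclear gene models (0 of them) was matched to a gene name, so the genes of strigolactone synthesis, nitrate assimilation, auxin response and root cell types were not checked here. The named features were 25 microRNA loci, 57 mitochondrial entries and 15 plastid entries. Of 6 plastid genes listed as signs of green tissue, 4 were in the table, and their summed level was 7.06 FPKM with TIS108 and 5.13 FPKM in the control. Most of that sum was petA, at 5.58 FPKM with TIS108 and 3.73 FPKM in the control. The gene rbcL was also above the control, at 0.969 FPKM with TIS108 and 0.803 FPKM in the control. The photosystem genes psbA and psaB were below it, at 0.433 and 0.0823 FPKM with TIS108, and at 0.487 and 0.117 FPKM in the control.

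The difference between TIS108 and the control was one-sided in its tails. Differences were taken as log2 of FPKM + 1 with TIS108 minus the same in the control, and an entry was counted as lower or higher from a 2-fold difference on that scale. With TIS108, 284 entries were lower, which is 1.85% of the 15381, and 3 were higher, which is 0.0195%. At a limit of 1.5-fold the counts were 1193 lower (7.76%) and 86 higher (0.559%), and at 4-fold they were 7 lower (0.0455%) and 0 higher (0%). With columns rescaled to equal sums, 190 entries were lower and 14 higher.

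The middle of the distribution did not share this tilt. The median log2 difference over the 15381 entries was 0.01, with 7963 entries above the control (51.8%) and 7417 below it (48.2%). The lowest 25% of entries lay below -0.21 and the highest 25% above 0.16. The lowest 1% lay below -1.18 and the highest 1% above 0.49. The extremes were -3.25 and 1.03.

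**Figure D1:**
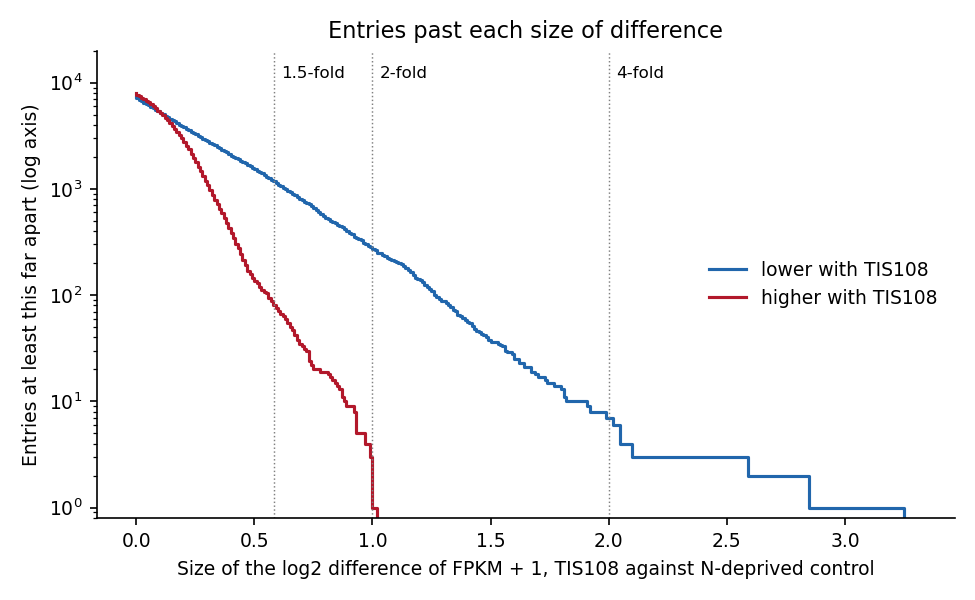
Number of entries (log axis) at least as far from the N-deprived control as the size of log2 difference on the x axis, for entries lower with TIS108 (blue) and entries higher with TIS108 (red), with 1 value per group. Both curves start near each other, and at the 2-fold line 284 entries remain on the lower side and 3 on the higher side.

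The widest single differences belonged to nuclear gene models without a name here. Zm00001d008523 was at 8.78 FPKM with TIS108 and 92.2 FPKM in the control, a ratio of 0.0953. Zm00001d001572 was at 1.56 FPKM with TIS108 and 17.5 FPKM in the control, a ratio of 0.0891. Both stood lower with TIS108 than in any other group, since the nitrate and nitrate plus PCIB roots had 23.6 and 35.3 FPKM of Zm00001d008523, and 5.52 and 5.99 FPKM of Zm00001d001572.

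The 3 higher entries were moderate in level and in difference. Zm00001d011472 was at 7.25 FPKM with TIS108 and 3.05 FPKM in the control, a log2 difference of 1.03. Zm00001d050557 was at 11.8 FPKM with TIS108 and 5.38 FPKM in the control, a difference of 1.01. Zm00001d035570, named after its values were seen, was at 12.3 FPKM with TIS108 and 5.66 FPKM in the control, a difference of 1.00. All 3 sat close to the 2-fold limit, and with a pseudocount of 5 in place of 1 none of them (0) reached it.

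The minimum of 5 FPKM shaped part of these counts. Both groups reached it for 14124 entries, TIS108 alone for 452 and the control alone for 805. Of the 284 lower entries, 158 were at 5 FPKM or more in both groups, and 126 passed through the control only, where a lower value with TIS108 is built into the choice. Just inside the minimum were entries at 2.85, 5.002 and 5.002 FPKM with TIS108, against 5.002, 4.85 and 3.70 FPKM in the control. Just outside it were entries at 2.76, 4.999 and 4.996 FPKM with TIS108, against 4.999, 4.87 and 4.23 FPKM in the control. These neighbours of the minimum include differences on both sides.

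The difference changed with the level of expression, and abundant transcripts were mostly lower with TIS108. Entries were ranked by their mean FPKM in the nitrate and nitrate plus PCIB columns, which take no part in the comparison. Among 774 entries at 100 FPKM or more, 623 were below the control (80.5%), against 48.2% of all 15381, and their median log2 difference was -0.26. Only 15 of the 774 were lower by 2-fold (1.94%, against 1.85% of all entries), so this was a small difference spread over many abundant transcripts.

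The step appeared between middle and high levels. The median was 0.04 for 4483 entries from 5 to 10 FPKM, 0.06 for 4638 entries from 10 to 20 FPKM and 0.02 for 3510 entries from 20 to 50 FPKM. It was -0.09 for 1085 entries from 50 to 100 FPKM, -0.22 for 501 entries from 100 to 200 FPKM, -0.32 for 220 entries from 200 to 500 FPKM and -0.23 for 53 entries from 500 FPKM upward. The 891 entries under 5 FPKM in those columns had a median of -0.33, and 648 of them were below the control (72.7%). They are in the comparison only because TIS108 or the control reached 5 FPKM, a choice that can widen differences on either side. Why more of them were below the control was not tested.

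**Figure D2:**
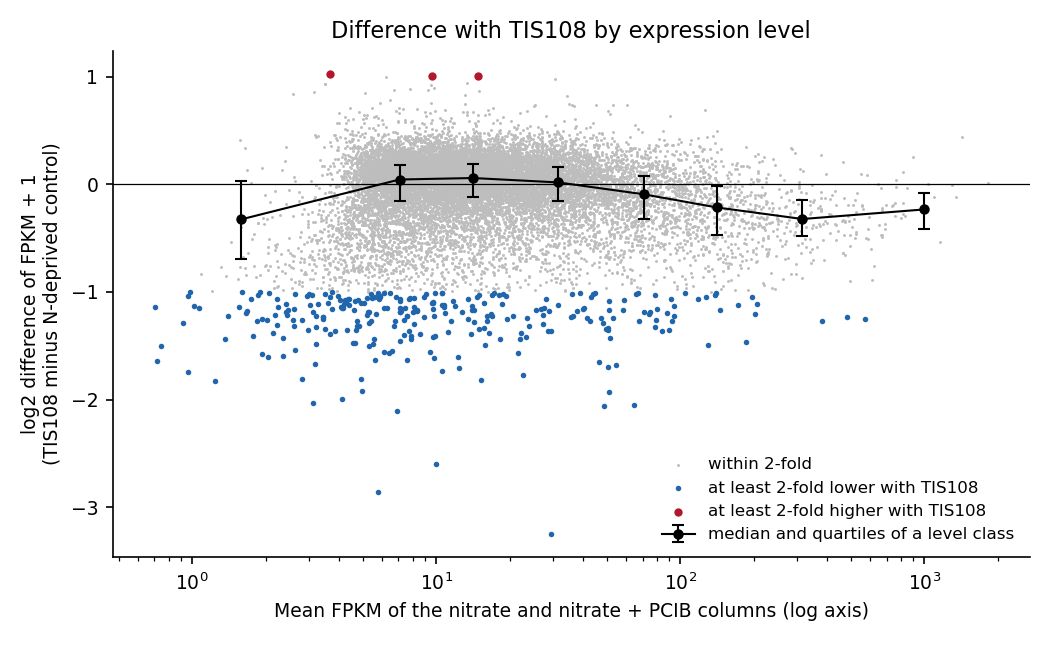
Log2 difference of FPKM + 1 (TIS108 minus N-deprived control) for each of the 15381 entries, against the mean FPKM of the nitrate and nitrate plus PCIB columns (log axis). Blue points are the 284 lower and red points the 3 higher entries, and black points with bars are the median and quartiles of 8 level classes, placed at the middle of each class. The medians lie between 0.02 and 0.06 from 5 to 50 FPKM, between -0.32 and -0.22 from 100 to 500 FPKM and at -0.23 above.

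Abundant entries also held most of the difference between the column sums. The sum over the 774 entries at 100 FPKM or more was 151240 FPKM with TIS108 and 185026 FPKM in the control, a difference of -33786 FPKM, where all entries of the table together differed by -50147 FPKM. Entries that themselves reached 100 FPKM numbered 680 with TIS108, where they held 32.3% of the summed FPKM, and 826 in the control, where they held 39.0%. FPKM is relative to the total of a column, so the table does not show whether the amount of these transcripts per root fell. When columns were rescaled to equal sums, the median over the 15458 entries that then reached 5 FPKM was 0.16, in place of 0.01, and the median of the abundant entries was then -0.10, with 483 of 773 below the control (62.5%, against 29.8% of all entries). Quantile normalization, which gives both columns the same distribution of levels, left 344 of 774 below (44.4%, against 41.2%).

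Some abundant entries were above the control. The widest gain in FPKM was that of ENSRNA049469775, an RNA gene annotated by Ensembl whose type the table does not give, at 1504 FPKM with TIS108 and 1106 FPKM in the control. The next widest gain was that of Zm00001d016625, at 748 FPKM with TIS108 and 628 FPKM in the control. At the other end Zm00001d035684 was at 493 FPKM with TIS108 and 1174 FPKM in the control, a difference of -681 FPKM. These 3 entries were named after their values were seen.

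The 284 lower entries were set beside the other groups. Their median level was 6.002 FPKM with TIS108, 6.57 FPKM with nitrate, 8.83 FPKM with nitrate plus PCIB and 16.1 FPKM in the N-deprived control. Over all 15381 entries the medians of the same groups were 13.7, 13.8, 13.7 and 13.8 FPKM. The 284 entries were chosen on the TIS108 and control columns, which raises their control median and lowers their TIS108 median. No overlap with the nitrate comparison is drawn from these values.

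The nitrate and nitrate plus PCIB columns were not used to choose these entries. In that pair, 44 of the 284 were higher by 2-fold with nitrate plus PCIB than with nitrate (15.5%, against 2.76% of the 15381 entries). In the other direction 9 of the 284 were lower by 2-fold (3.17%, against 0.754%). By any amount, 213 of the 284 were above nitrate with nitrate plus PCIB (75%, against 42.3% of all entries). Both 2-fold shares thus exceeded those of all entries, and more of the 284 lay above nitrate than below it, as counts without a test. Of the 284, 92 had a mean under 5 FPKM in these columns, and no set of matched level was compared. This pair was not rescaled, although summed FPKM was 469344 with nitrate and 483955 with nitrate plus PCIB.

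**Figure D3:**
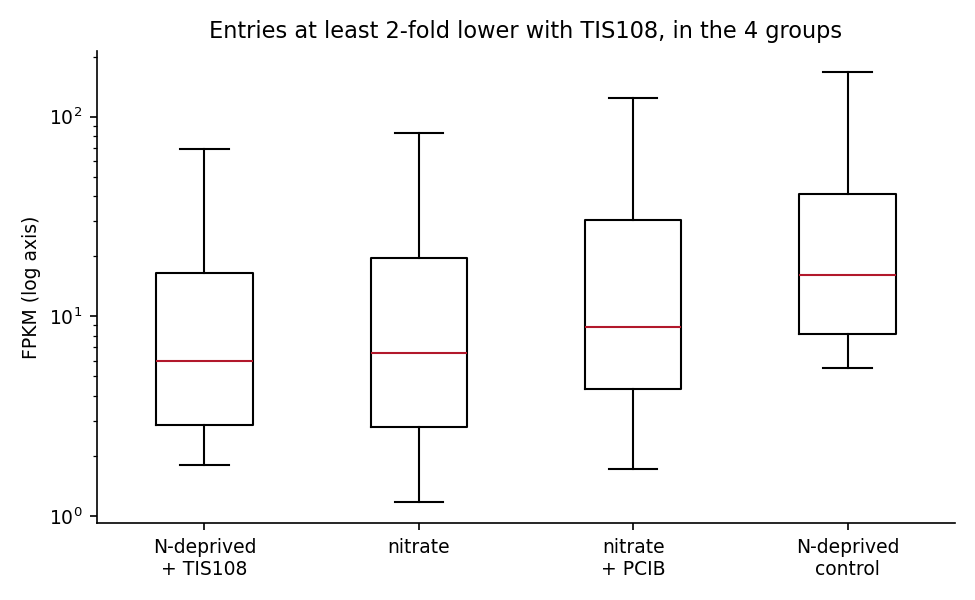
FPKM (log axis) of the 284 entries at least 2-fold lower with TIS108, in each of the 4 groups. Boxes show the quartiles with the median in red and whiskers run from percentile 5 to percentile 95, over entries and not over samples. The medians are 6.002, 6.57, 8.83 and 16.1 FPKM from left to right.

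Few entries set the TIS108 roots apart from every other group. Among 16001 entries that reached 5 FPKM in any group, 0 were 2-fold above all 3 other groups with TIS108 (0%) and 5 were 2-fold below all 3 (0.0312%). The same counts were 16 above (0.1%) and 65 below (0.406%) for nitrate, and 191 above (1.19%) and 42 below (0.262%) for nitrate plus PCIB. For the N-deprived control they were 69 above (0.431%) and 1 below (0.00625%). Of the 5 entries, 2 are Zm00001d008523 and Zm00001d001572, and the other 3 were named after their values were seen. Zm00001d007955 had 1.62 FPKM in TIS108 roots, 18.7 FPKM in nitrate roots, 8.14 FPKM in nitrate plus PCIB roots and 4.504 FPKM in control roots. Zm00001d032318 was at 3.45, 19.2, 10.2 and 8.20 FPKM in the same groups, and Zm00001d003190 at 11.4, 24.2, 81.3 and 28.4 FPKM. In these 3 entries the highest value stood with nitrate or with nitrate plus PCIB and not in the control.

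The share of lower entries differed between classes of feature. Lower by 2-fold were 265 of 15146 nuclear gene models (1.75%), 13 of 208 ENSRNA entries (6.25%), 5 of 12 mitochondrial entries (41.7%), 1 of 14 microRNA loci (7.14%) and 0 of 1 plastid gene, against 1.85% of all entries. The small classes include entries that reached 5 FPKM in the control only, so their shares are given as a description. With 5 FPKM or more in both groups, 4 of 165 ENSRNA entries (2.42%) and 0 of 9 microRNA loci were lower, against 1.12% of all entries. For mitochondrial entries it was 3 of 8 (37.5%). With no minimum level it was 5 of 57 (8.77%), against 383 of all 26451 entries (1.45%). The identical pair orf99-b1 and orf99-b2, past 5 FPKM in the control only, is among these 5. Over all 293 ENSRNA entries, whether or not they reached 5 FPKM, 196 were below the control and 97 above, and the median log2 difference was -0.15, against 52.2% below and a median of -0.01 over all 26451 entries. Rescaling to equal sums moved the median of all entries to 0.10 and that of the ENSRNA entries to -0.02, with 151 of 293 below the control, against 36.8% of all entries. The ENSRNA set includes 25 entries that repeat the values of the microRNA loci, and short features have less stable FPKM values.

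The mitochondrial genome encodes core subunits of the respiratory chain, part of its own ribosome and many open reading frames of unknown role. Its transcripts were mostly lower with TIS108: 51 of 57 entries were below the control and 6 above, against 52.2% below over all entries, with a median of -0.26 that was -0.17 with equal sums. Poly(A) selection does not capture organelle RNA as it captures nuclear messenger RNA, and its part in these values was not tested.

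Several low values along this genome stood next to each other. In the order of the RefSeq gene table, orf179, rps12, nad3, trnL-b, trnS-a and orf140-b follow one another. The trnS-a gene was not analysed here, and the other 5 had log2 differences between -1.63 and -0.82, with a median of -0.96. The remaining 52 mitochondrial entries had a median of -0.24 and ranged from -1.12 to 0.43. Among those 52, rrn5 (-1.12), orf99-b1 and orf99-b2 (both -1.07), atp9 (-0.99) and trnR-a (-0.91) were as low as genes of the run. The pseudocount also narrows the differences of entries at low levels. In plain FPKM the ratios of the run were 0.286 to 0.542. The low entries rrn18 (0.405), orf121-a-ct (0.502), ccmC (0.508) and orf261 (0.515) had ratios in that range too. The run was picked after its values were seen and carries no test.

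The gene rps12, for a protein of the small mitochondrial ribosomal subunit, was at 39.8 FPKM with TIS108 and 85.0 FPKM in the control, a ratio of 0.468. Next to it nad3, for a subunit of respiratory complex I that is transcribed together with rps12 in many flowering plants, was at 10.7 FPKM with TIS108 and 19.6 FPKM in the control, a ratio of 0.542. The tRNA entry trnL-b, which the RefSeq table lists as a pseudogene, was at 5.14 FPKM with TIS108 and 18.0 FPKM in the control, a ratio of 0.286. On the FPKM + 1 scale rps12 (-1.08) and trnL-b (-1.63) were past the 2-fold limit, as they were with a pseudocount of 5, at -1.01 and -1.18, whereas with equal sums rps12 was short of it, at -0.93, and trnL-b past it, at -1.49.

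The open reading frames that flank these genes were low in both groups. The reading frame orf179 was at 1.67 FPKM with TIS108 and 4.17 FPKM in the control, and orf140-b at 0.879 FPKM with TIS108 and 2.40 FPKM in the control. With a pseudocount of 5 their log2 differences were -0.46 and -0.33. One step beyond orf140-b, mat-r, a maturase gene that aids intron splicing, was at 0.550 FPKM with TIS108 and 0.873 FPKM in the control, a log2 difference of -0.27. Further along, rps1 was at 2.199 FPKM with TIS108 and 2.213 FPKM in the control. On the FPKM + 1 scale mat-r and rps1 thus had smaller differences than the run. With a pseudocount of 0.1, mat-r was at -0.58 and orf140-b at -1.35, so the step between them changed with the pseudocount.

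All 5 genes of the run were also below the control in the other groups. Levels of rps12 were 60.6 FPKM (nitrate) and 56.6 FPKM (nitrate plus PCIB), those of trnL-b 10.04 and 5.19 FPKM, and those of nad3 16.6 and 14.7 FPKM. The control column is the highest of 4 for each of them, and it is shared by every such comparison.

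**Figure D4:**
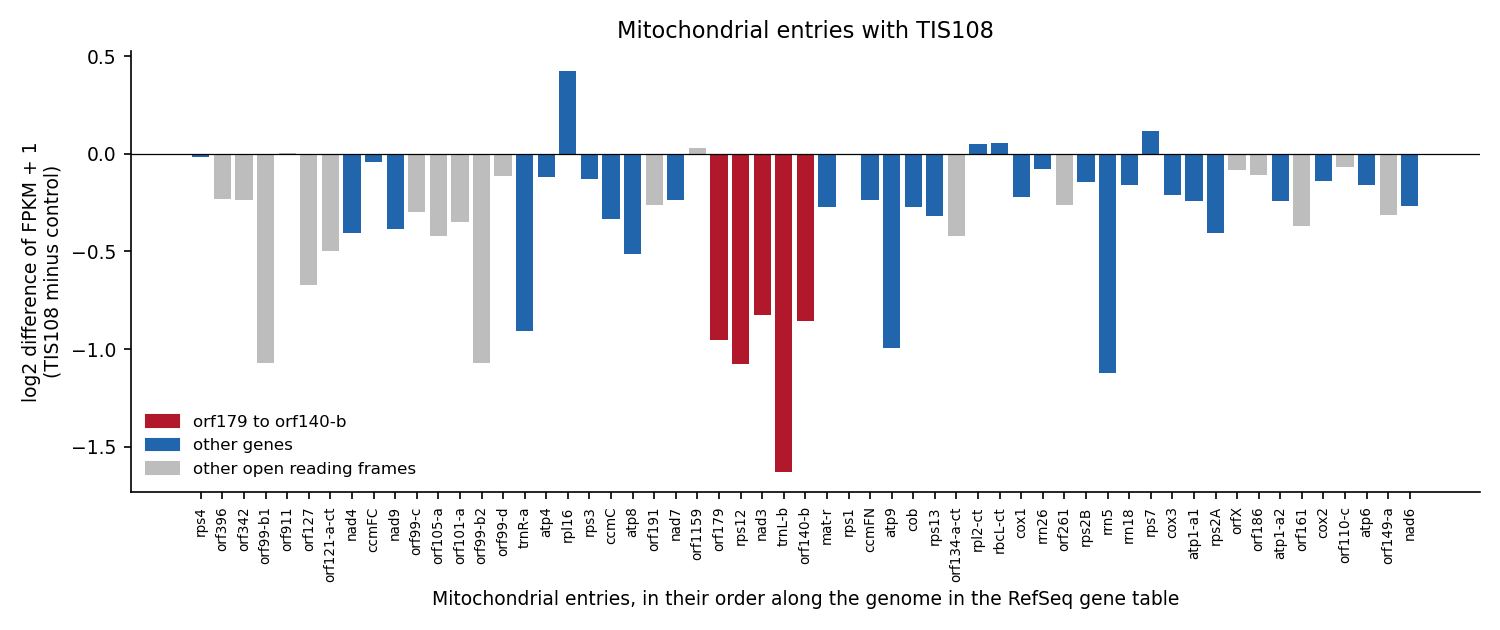
Log2 difference of FPKM + 1 (TIS108 minus N-deprived control) of the 57 mitochondrial entries, as bars in the order of the RefSeq gene table along the genome, with neighbours drawn side by side although genes that were not analysed may lie between. The 5 red bars from orf179 to orf140-b lie between -1.63 and -0.82, while atp9, rrn5, trnR-a and the identical orf99-b1 and orf99-b2 are single low bars elsewhere.

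Among the other respiratory genes atp9 had a wide difference and the rest smaller ones. The ATP synthase genes numbered 6 entries, of which atp1-a1 and atp1-a2 hold identical values and count as 2. With equal sums atp4 turned, and as deposited all 6 entries were below the control. Their log2 differences ran from -0.99 to -0.12, with a median of -0.24 that is the value of the identical pair. The gene atp9, for the membrane ring subunit of that enzyme, was the widest of them, at 22.5 FPKM with TIS108 and 45.8 FPKM in the control, whereas atp4, for a stalk subunit, stood at 4.48 FPKM with TIS108 and 4.95 FPKM in the control, a difference of -0.12 that was 0.01 with equal sums. The 5 NADH dehydrogenase genes, subunits of complex I, ranged from -0.82 to -0.23. Apart from nad3 they were at low levels, such as nad9 at 1.99 FPKM with TIS108 and 2.91 FPKM in the control.

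The cytochrome genes of the chain were below the control by small amounts. The gene cob, for the cytochrome b subunit of complex III, was at 1.91 FPKM with TIS108 and 2.52 FPKM in the control. The 3 cytochrome c oxidase genes, for the core of complex IV, had log2 differences from -0.22 to -0.14, and the 3 genes of cytochrome c maturation from -0.33 to -0.04, where ccmFC turned to 0.01 after quantile normalization. On the FPKM + 1 scale these are differences below 1.5-fold, of features under 5 FPKM. In plain FPKM the widest was that of ccmC, at 0.364 FPKM with TIS108 and 0.716 FPKM in the control, a ratio of 0.508.

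Ribosomal genes of the mitochondrion were split. Of 10 protein entries, 7 were below the control and 3 above, with a median of -0.07, and rps1 and rps4 of the 7 turned to above it with equal sums. Against rps12 at one end stood rpl16, a protein gene of the large subunit, at 1.20 FPKM with TIS108 and 0.636 FPKM in the control. That entry overlaps rps3 in the RefSeq table, and rps3 was at 0.700 FPKM with TIS108 and 0.856 FPKM in the control, so reads over the shared stretch cannot be told apart. The small ribosomal RNA rrn5 was at 5.61 FPKM with TIS108 and 13.4 FPKM in the control, while the long rrn18 and rrn26 were listed below 0.3 FPKM in both groups.

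The mitochondrial entries of the comparison that stood outside those gene groups were reading frames and a tRNA. The reading frame orf127 was at 7.97 FPKM with TIS108 and 13.3 FPKM in the control, and orf101-a at 13.1 FPKM with TIS108 and 17.0 FPKM in the control. The identical pair orf99-b1 and orf99-b2 was at 2.72 FPKM with TIS108 and 6.80 FPKM in the control. The tRNA entry trnR-a, which overlaps atp4, was at 2.64 FPKM with TIS108 and 5.83 FPKM in the control. Close to the control were orf342, at 4.301 FPKM with TIS108 and 5.25 FPKM in the control, and orf99-d, at 6.48 FPKM with TIS108 and 7.11 FPKM in the control, whose difference of -0.12 was 0.02 with equal sums.

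In the plastid genome the differences were small and 1 stretch of neighbours lay above the control. Of 15 plastid entries 8 were above the control and 7 below, with a median of 0.04. The 8 include 2 rpl23 entries with the same values as each other in these groups. The genes ycf4, cemA and petA follow one another in the RefSeq table and had the 3 highest differences, at 0.26, 0.42 and 0.48, whereas the other 12 entries ranged from -0.46 to 0.13. The gene petA, for cytochrome f of the cytochrome b6f complex and the plastid entry that reached 5 FPKM, was at 5.58 FPKM with TIS108 and 3.73 FPKM in the control. The gene cemA, for an envelope membrane protein, was at 4.21 FPKM with TIS108 and 2.89 FPKM in the control, and ycf4, for an assembly factor of photosystem I, at 2.67 FPKM with TIS108 and 2.06 FPKM in the control. No member of the stretch reached a 1.5-fold difference as deposited (the FPKM ratios ran from 1.299 to 1.497), but with equal sums petA passed it, at a log2 difference of 0.60. The stretch was picked after its values were seen.

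MicroRNA loci were split between both directions. Plant microRNAs are cut from longer transcripts that carry a poly(A) tail, and reads over a locus measure that precursor and not the mature microRNA. Of the 25 loci, 13 were above and 12 below the control, the median log2 difference was 0.04, and 17 were above with equal sums. At least 5 FPKM was reached by 14 of them in TIS108 or control roots. Each locus repeats the values of an ENSRNA entry, and no family below was tested.

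The MIR156 family represses SPL transcription factor genes, which promote the change from juvenile to adult growth. Its locus MIR156k was the 1 microRNA locus past the 2-fold limit, at 4.92 FPKM with TIS108 and 12.8 FPKM in the control. Its log2 difference was -1.23, and -0.85 with a pseudocount of 5. MIR156k reached 5 FPKM in the control only. MIR156g was at 11.6 FPKM with TIS108 and 16.4 FPKM in the control, and MIR156f at 6.32 FPKM with TIS108 and 7.83 FPKM in the control. MIR156d went the other way, at 9.47 FPKM with TIS108 and 7.06 FPKM in the control, so 3 loci of the family were below the control and 1 above it.

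The copper-linked families, with 1 locus each, differed in direction. MIR408b reached 5 FPKM with TIS108 only and MIR398b in the control only, so the side of each is partly set by the choice. MIR408b, whose family represses genes of copper proteins such as plantacyanin, was at 5.13 FPKM with TIS108 and 2.204 FPKM in the control, a ratio of 2.33. Its log2 difference was 0.94 on the FPKM + 1 scale, short of the limit, and 1.05 with equal sums, past it. With a pseudocount of 5 it was 0.49. MIR398b, whose family represses copper/zinc superoxide dismutase genes, was at 3.74 FPKM with TIS108 and 5.09 FPKM in the control. The other groups placed MIR408b at 5.56 FPKM (nitrate) and 1.45 FPKM (nitrate plus PCIB), so the levels with TIS108 and nitrate lay side by side above the other 2.

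Among families with a role in root patterning, the more abundant loci stood close to the control. MIR164b, of a family that represses NAC genes linked to lateral root initiation, was the most abundant locus, at 114 FPKM with TIS108 and 111 FPKM in the control, and MIR164d of that family was at 3.44 FPKM with TIS108 and 4.18 FPKM in the control. MIR171f, of a family that represses GRAS genes, was at 49.6 FPKM with TIS108 and 52.4 FPKM in the control, a difference of -0.08 that was 0.07 with equal sums. MIR166d, of a family that represses class III HD-ZIP genes of radial patterning, was at 5.24 FPKM with TIS108 and 5.58 FPKM in the control, a difference of -0.08 that was 0.05 with equal sums. The second locus of that family, MIR166a, was lower in level and had the second highest difference of the 25 loci (0.61), at 3.66 FPKM with TIS108 and 2.05 FPKM in the control.

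The 5 loci of auxin-linked families were above the control, where 13 of all 25 microRNA loci and 12650 of all 26451 entries were. Of the 5, MIR167g, MIR167d and MIR160b were below 5 FPKM in both groups, and MIR393b reached it with TIS108 only. Among the 11 microRNA loci below 5 FPKM in both groups, 7 were above the control. The MIR167 and MIR160 families repress genes of auxin response factors, and MIR393 represses genes of auxin receptors. MIR167b was at 5.72 FPKM with TIS108 and 5.47 FPKM in the control, MIR167g at 3.36 and 2.60 FPKM (TIS108 and control), and MIR167d at 2.86 and 1.82 FPKM (TIS108 and control). MIR160b was at 3.23 FPKM with TIS108 and 2.14 FPKM in the control, and MIR393b at 5.26 FPKM with TIS108 and 4.48 FPKM in the control. The log2 differences of these 5 loci ran from 0.05 to 0.45, with none of them (0) at the 2-fold limit.

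The remaining loci at 5 FPKM or more belong to growth-linked families. MIR159a, of a family that represses GAMYB-like genes, was at 13.98 FPKM with TIS108 and 15.9 FPKM in the control, and MIR159f of the same family was at 6.19 FPKM with TIS108 and 4.80 FPKM in the control. MIR396d, of a family that represses growth-regulating factor genes, was at 10.5 FPKM with TIS108 and 12.6 FPKM in the control. Of the nitrogen-linked MIR169 family, which represses NF-YA genes, MIR169c was at 3.49 FPKM with TIS108 and 2.65 FPKM in the control, against 8.66 FPKM with nitrate. The other locus of that family, MIR169e, was at 2.38 FPKM with TIS108 and 2.53 FPKM in the control, against 2.14 FPKM with nitrate, and its difference of -0.06 was 0.05 with equal sums.

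**Figure D5:**
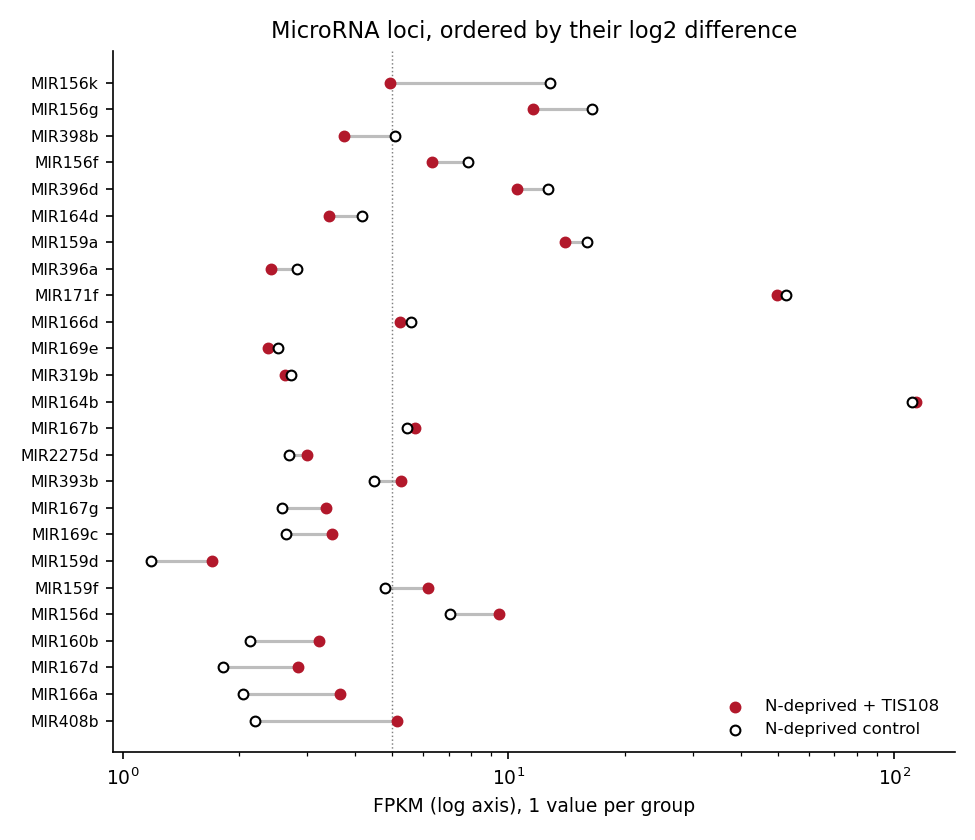
FPKM (log axis) of the 25 microRNA loci with TIS108 (red) and in the N-deprived control (open), 1 value per group, ordered from the lowest log2 difference at the top to the highest at the bottom. The dotted line marks 5 FPKM. MIR156k, at 4.92 FPKM with TIS108 and 12.8 FPKM in the control, and MIR408b, at 5.13 and 2.204 FPKM in the same groups, have the widest gaps.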

How the data were processed

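Poly(A) RNA of primary roots was sequenced in 12 samples, grouped by their titles. Per the submitters' processing notes, the tools were CASAVA 1.8, Trimmomatic 0.39 and TopHat2 2.0.13 and the build was B73 RefGen_v4; their roles are not stated. The authors deposited 1 table of FPKM values with 1 column per group; not given in the sources used here are the program, annotation release, strand setting and way of combining replicates. There were 0 columns of no group. Depth is unknown, so no interval or detection limit was computed.

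Differences are log2(FPKM + 1), a pseudocount that understates differences of low entries, from 5 FPKM in either group. With 1 value per group, 0 tests were made. Names and gene order came from a RefSeq gene table (assembly Zm-B73-REFERENCE-NAM-5.0), whose build differs. Its start and end positions were used only for the order and overlaps of organelle genes, and no coordinates are printed. It matched 97 identifiers, and 0 of 26061 nuclear ones. The text names the 2 nuclear entries widest in each direction and the microRNA loci and organelle genes at 5 FPKM or more; below that level, families and gene groups are described by counts with examples. Members and lists were chosen with earlier results of these data known. Nuclear pathway lists could not be filled. Software was Python 3.11.15, pandas 2.3.3 and numpy 2.4.6.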

Additional observations from a re-analysis of the deposited data

How the results depend on the processing

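No paired analysis was possible because the table holds 1 column per group, and leaving out replicates was not possible for the same reason. The alternatives were pseudocounts of 0.1 and 5, columns rescaled to equal sums or to equal medians, quantile normalization, other minimum levels, identical entries counted once and other fold limits; those on the abundant entries were added after the data were seen. The number of lower entries (284) became 105 with a pseudocount of 5, 158 with 5 FPKM in both groups, and 1193 and 7 at limits of 1.5-fold and 4-fold. The number of higher entries (3) became 12 and 0 with pseudocounts of 0.1 and 5, 14 with equal sums, 7 after quantile normalization, 5 with no minimum level, and 86 and 0 at the other fold limits. Medians over entries at 5 FPKM or more moved by at least 0.1 as follows. With equal sums they were 0.16 for all entries, 0.16 for nuclear gene models, -0.036 for ENSRNA entries, 0.073 for microRNA loci, -0.84 for mitochondrial entries and 0.60 for petA, the 1 plastid entry at that level. The microRNA median was 0.037 after quantile normalization, 0.035 with no minimum level and -0.21 from 10 FPKM, against -0.08. The mitochondrial median (-0.95) was -1.06 and -0.61 with pseudocounts of 0.1 and 5, and -0.26 with no minimum level. The plastid value (0.48) was 0.28 with a pseudocount of 5 and 0.041 with no minimum level. For the abundant entries, the median was -0.10 with equal sums and 0.033 after quantile normalization, which left 344 below the control; that normalization equalizes the distributions by construction. Of all 97 named organelle genes and microRNA loci, 13 changed sign under some pseudocount or scaling, namely MIR166d, MIR169e, MIR171f, MIR319b, rps1, rps4, ccmFC, atp4, orf99-d, orf110-c, psbA, rpoC2 and the plastid rpl16. The cause of the other changes was not tested.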
